A study of Mus musculus with 12 samples.

Results

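Empty vector-transfected striatal cells with 109 CAG repeats in both copies of the huntingtin gene (Hdh109/109) were compared with empty vector-transfected cells with 7 repeats (Hdh7/7). The comparison rests on 2 arrays of each line, 4 of the 12 Illumina mouse expression arrays of the study, taken by the titles of the samples. Both lines are immortalised cells derived from the striatum of homozygous knock-in mice and were grown in the same serum-containing medium. Each genotype is represented by 1 line, so the repeat length cannot be told apart from any other difference between the lines. The other 8 arrays hold the same lines untransfected or transfected with a construct labelled DNRest, 2 arrays per group. They entered the model fit and served for comparison. The vector, the method and the time of transfection are not stated in the labels, and the treatment field of every sample describes the cells as untreated. The source names give the opposite genotype to the title for 6 of the 12 arrays, among them replicate 1 of the Hdh109/109 empty vector cells and replicate 2 of the Hdh7/7 empty vector cells. The genotype fields of the samples give the same genotype as the titles. The design text calls the replicates biological. No label ties them to separate cultures, and the p-values below reflect only how far the arrays of a group lay apart, whatever the source of that spread.

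Huntingtin with a long repeat carries an expanded run of glutamines and causes Huntington's disease, which strikes the striatum first. Huntingtin is known to hold REST, a repressor of neuronal genes, in the cytoplasm, and the study addressed genes under REST. Mammalian cells also carry sensors of foreign nucleic acid such as Ddx58 (RIG-I), Ifih1 (MDA5) and Cgas. Once engaged, these sensors lead to secretion of type I interferon, whose receptor activates transcription factors that bind an interferon-stimulated response element. These switch on a large set of antiviral genes.

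The arrays separated by line. Levels are background-corrected, quantile-normalized log2 signals. Over the 15224 probes tested, the Hdh109/109 empty vector arrays correlated with each other at r = 0.986 and the Hdh7/7 empty vector arrays at r = 0.979, against 0.887 to 0.912 between the lines. These arrays detected 13237 and 14370 of 44505 probes in Hdh109/109 cells, against 12759 and 10295 in Hdh7/7 cells. Replicate 2 of the Hdh7/7 cells stood apart, with a median raw signal of 161 units against 76.8 to 81.9 units on the other 3 arrays. Its lowest detected signal after processing was also the highest of the 4, at a log2 level of 6.73 against 5.65 to 5.99. Of the arrays used for comparison, replicate 2 of the untransfected Hdh109/109 cells had a median of 156 units.

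In all, 2030 of 8487 genes (23.9%) were higher and 1903 (22.4%) lower in Hdh109/109 empty vector cells (limma, adjusted p under 0.05), 46.3% together. At a minimum of 2-fold, 935 were higher (11%) and 609 lower (7.18%), 18.2% together. The median log2 fold change over all genes tested was 0.01. By probe, 3490 of 15224 were higher (22.9%) and 3085 lower (20.3%). The probe count was 6575 (43.2%) in all and lay between 4868 and 6815 with any 1 of the 4 arrays left out. Under median scaling over all probes 91% of the calls were higher in Hdh109/109 cells, against 53.1% here. That scaling puts the median difference of all tested probes at 0.62. Of the called genes, 557 were undetected on both Hdh7/7 arrays, 208 were undetected on both Hdh109/109 arrays and 29 were undetected in both lines. For a gene undetected on both arrays of the dimmer line, the ratio is given as "at least N-fold", which sets the brighter line against the detection limit of the dimmer arrays. Where 1 array of a line detected the gene, the undetected signal is held at the limit of its array in the ratio, a choice made after seeing the data, but not in the fitted log2 fold change.

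The probe for Htt, the huntingtin gene itself, gave log2 levels of 5.60 and 5.25 in Hdh109/109 cells, against 6.92 and 6.50 in Hdh7/7 cells. It was undetected on both Hdh109/109 arrays and on replicate 2 of the Hdh7/7 cells. Only replicate 1 of the Hdh7/7 cells detected it, and the levels lay near the detection limit. With the undetected Hdh7/7 signal taken as read, the difference was at least 1.93-fold (log2 fold change -1.29 ± 0.19 (SE), limma adjusted p = 0.000449). Both the ratio and the test rest on signals of which 1 of 4 was detected. This probe does not read the length of the repeat. Rest was undetected on all 12 arrays, with 4.67 and 4.68 in Hdh109/109 cells and 4.97 and 4.54 in Hdh7/7 cells, and was not tested.

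Genes that interferon induces were higher in Hdh109/109 empty vector cells, many of them far above the detection limit that they did not reach in Hdh7/7 cells. Of 28 interferon effector genes tested, 24 rose and 0 fell, with a median log2 fold change of 2.43 against 0.01 over all genes. The remaining members were Zbp1 and Apobec3, both undetected in Hdh7/7 cells, and Samhd1 and Trafd1, at 0.27 and 0.09. With undetected probes held at their detection limit the list's median was 2.03. Of the 28, 13 were undetected on both Hdh7/7 arrays. When only probes detected on all 12 arrays were tested, 12 members remained, of which 10 rose (median 1.44). Another 8 listed effectors had a probe but were not detected often enough to be tested, and 9 had no probe named here. Rsad2 (viperin), which blocks viral replication, had log2 levels of 11.45 and 11.85 in Hdh109/109 cells, against 4.82 and 4.98 in Hdh7/7 cells. It was bright on both Hdh109/109 arrays and detected on neither Hdh7/7 array, at least 39-fold apart, or at least 50.5-fold without replicate 2 of the Hdh7/7 cells (log2 fold change 6.75 ± 0.25, limma adjusted p = 4.23e-08). Ifit3, a binder of foreign RNA and of antiviral adaptors, gave 10.21 and 10.95 in Hdh109/109 cells and 5.31 and 4.77 in Hdh7/7 cells, at least 18.7-fold. Mx2, a dynamin-like GTPase that restricts viruses, gave 9.09 and 9.61 in Hdh109/109 cells and 4.88 and 4.73 in Hdh7/7 cells, at least 7.92-fold. For each of these 3 genes the arrays of the lines lay far apart, and the spread within a line was under 1 log2 unit. Oas1g, of the oligoadenylate synthetase family that activates RNase L, was at least 14.3-fold higher, and Ifi27 at least 16.1-fold. Parp9, an ADP-ribosyltransferase partner of Dtx3l, was detected on 1 Hdh7/7 array and 12.2-fold higher. Of the members detected on both arrays of each line, 2 chosen after their values were seen show the smaller differences. Ifitm3, which blocks viral entry, had 12.07 and 11.91 in Hdh109/109 cells and 10.43 and 10.41 in Hdh7/7 cells (log2 fold change 1.57 ± 0.16), and the RNA-activated kinase gene Eif2ak2 had 11.99 and 12.34 in Hdh109/109 cells and 11.06 and 10.95 in Hdh7/7 cells (log2 fold change 1.16 ± 0.14).

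Of 14 interferon-inducible GTPase genes with a probe, 6 were tested and all 6 rose (median log2 fold change 3.98, or 3.40 with undetected probes at their limit). Of the 6, 4 were undetected on both Hdh7/7 arrays, and 1 was detected on all 12 arrays. Detection on 2 of the 12 arrays was enough for a test, so a gene could enter through the Hdh109/109 arrays alone. The count of 6 is therefore partly set by the filter. These proteins attack the vacuoles in which intracellular pathogens live. Irgm2, an immunity-related GTPase, had levels of 9.49 and 10.25 in Hdh109/109 cells, against 4.59 and 4.60 in Hdh7/7 cells, at least 11.4-fold apart (log2 fold change 5.27 ± 0.23, limma adjusted p = 9.72e-08). Gbp3, a guanylate-binding protein, had 10.62 and 11.36 in Hdh109/109 cells and 6.73 and 6.46 in Hdh7/7 cells, 19.1-fold. Its relative Gbp7 had 8.15 and 8.73 in Hdh109/109 cells and 4.97 and 4.67 in Hdh7/7 cells, at least 4.22-fold. Igtp and Ifi47 were at least 10.7-fold and 5.47-fold higher, and Irgm1, detected in both lines, was 10.4-fold higher. Members of this family, like those of the Oas1 and class I families below, resemble each other in sequence, and cross-hybridisation of their probes was not tested.

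The 250 bases before the start site of 6 genes that rose follow here, chosen because they hold the core of the interferon-stimulated response element, to which interferon-activated factors bind. Sequences are from RefSeq (GRCm38.p6), each 5′ to 3′ on the strand of its gene. Capitals mark each match to the letters TTTC, any 2 bases and TTTC again or, where the match is on the other strand, GAAA, any 2 bases and GAAA. Overlapping matches were counted separately. Rsad2 lies at chr12:26456453-26456702 (minus strand), Cxcl10, a chemokine described below, at chr5:92348890-92349139 (minus), Ifit3 at chr19:34583279-34583528 (plus), Irgm2 at chr11:58214727-58214976 (plus), Igtp at chr11:58199306-58199555 (plus) and Gbp3 at chr3:142559794-142560043 (plus).
Rsad2: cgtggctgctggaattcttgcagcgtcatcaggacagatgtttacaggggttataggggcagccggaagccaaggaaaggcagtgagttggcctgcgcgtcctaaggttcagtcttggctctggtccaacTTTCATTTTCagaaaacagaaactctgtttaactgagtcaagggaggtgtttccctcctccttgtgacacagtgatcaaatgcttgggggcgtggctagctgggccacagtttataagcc
Cxcl10: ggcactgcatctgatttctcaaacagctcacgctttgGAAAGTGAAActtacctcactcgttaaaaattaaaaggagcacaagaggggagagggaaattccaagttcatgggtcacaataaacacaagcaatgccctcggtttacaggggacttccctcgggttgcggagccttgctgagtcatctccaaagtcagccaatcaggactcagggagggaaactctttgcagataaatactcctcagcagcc
Ifit3: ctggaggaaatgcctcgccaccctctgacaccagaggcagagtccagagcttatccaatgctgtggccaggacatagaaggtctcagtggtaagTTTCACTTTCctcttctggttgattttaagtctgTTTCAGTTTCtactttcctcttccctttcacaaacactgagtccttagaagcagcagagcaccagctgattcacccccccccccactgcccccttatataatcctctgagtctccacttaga
Irgm2: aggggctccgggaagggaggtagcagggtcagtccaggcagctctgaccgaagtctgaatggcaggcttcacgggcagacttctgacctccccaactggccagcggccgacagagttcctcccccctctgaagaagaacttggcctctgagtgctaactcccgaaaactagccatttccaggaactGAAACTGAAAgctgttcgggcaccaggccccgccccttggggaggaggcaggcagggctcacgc
Igtp: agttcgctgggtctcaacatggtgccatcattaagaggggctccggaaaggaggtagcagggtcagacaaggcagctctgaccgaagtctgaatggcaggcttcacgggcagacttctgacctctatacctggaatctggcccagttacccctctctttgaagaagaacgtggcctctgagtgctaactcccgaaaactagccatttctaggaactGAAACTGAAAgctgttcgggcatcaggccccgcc
Gbp3: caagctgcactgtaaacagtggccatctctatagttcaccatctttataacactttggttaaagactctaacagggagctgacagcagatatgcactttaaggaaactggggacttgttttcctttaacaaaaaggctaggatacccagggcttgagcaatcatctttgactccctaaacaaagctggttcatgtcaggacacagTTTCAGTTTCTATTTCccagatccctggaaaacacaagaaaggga

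In Rsad2 the match began 120 bases before the start, in Cxcl10 213, in Irgm2 64 and in Igtp 34. Ifit3 had 2 matches, at 156 and 122 bases, and Gbp3 had 2 that overlap, at 45 and 39 bases. The Irgm2 and Igtp windows, on the same chromosome, share a run of 55 identical bases, which does not hold the match. Over all 32851 RefSeq windows of this length, 978 (2.98%) held a match. Among tested genes with a window, the share was 73 of 1645 (4.44%) for genes higher in Hdh109/109 cells, 40 of 1541 (2.6%) for genes lower and 94 of 3769 (2.49%) for genes not called. Of the tested GTPase genes 5 of 6 (83.3%) held a match. Over the lists of effectors, GTPases, sensors, signalling, MHC class I and chemokine genes together it was 19 of 75 (25.3%), and 15 of 55 (27.3%) among members that rose. Hence 40 of those 55 had no match within 250 bases, and another 17 called members had no window. A match describes the sequence and shows no binding.

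Components of interferon signalling changed in part. Of 17 tested, 8 rose and 1, the interferon gamma receptor chain Ifngr1 (-0.45), fell, with a median log2 fold change of 0.56. Under median scaling over all probes 15 rose and 0 fell. The transcription factor genes Stat2 and Irf9, whose products act downstream of the interferon receptor, both rose. Stat2 had 7.88 and 8.22 in Hdh109/109 cells, against 5.02 and 4.64 in Hdh7/7 cells, at least 3.23-fold. Irf9 had 9.82 and 10.20 in Hdh109/109 cells and 6.64 and 6.25 in Hdh7/7 cells, 9.99-fold (log2 fold change 3.56 ± 0.23, limma adjusted p = 1.43e-06). Irf7, the factor that amplifies interferon genes, had 8.03 and 8.40 in Hdh109/109 cells and 5.57 and 5.81 in Hdh7/7 cells, at least 3.62-fold. Irf1 was 4.28-fold and Stat3 3.11-fold higher. Nmi was 2.9-fold higher, with a fitted log2 fold change of 2.94 without Hdh7/7 replicate 1, which left only an undetected Hdh7/7 signal, and 1.74 without Hdh7/7 replicate 2. The constitutive factor Irf3, which acts upstream of interferon, had a log2 fold change of -0.13 ± 0.12 and the kinase Jak2 one of 0.09 ± 0.19, neither past the test. The ligand gene Ifnb1 (interferon beta) was undetected, at 4.83 and 5.13 in Hdh109/109 cells and 5.19 and 5.18 in Hdh7/7 cells, and was not tested.

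Of 14 nucleic acid sensor genes tested, 9 rose and 1 fell, with a median log2 fold change of 1.19. Under median scaling over all probes 11 rose and 0 fell. The RNA helicase sensors stood out. Ddx58 had 8.97 and 10.00 in Hdh109/109 cells, against 6.48 and 4.84 in Hdh7/7 cells, a log2 fold change of 3.82 ± 0.50 with a wide spread in both lines. That value was 4.64 without Hdh7/7 replicate 1 and 3.00 without Hdh7/7 replicate 2, and the ratio with the undetected signal at its limit was 7.33-fold. Ifih1 had 7.70 and 8.45 in Hdh109/109 cells and 4.81 and 4.66 in Hdh7/7 cells, at least 3.29-fold, and Dhx58 was at least 2.67-fold higher. Trim25, the ubiquitin ligase that activates Ddx58, had 10.78 and 11.62 in Hdh109/109 cells and 4.78 and 5.09 in Hdh7/7 cells, at least 28.6-fold. Myd88, the adaptor of Toll-like receptors, was 4.44-fold higher. The DNA sensor Cgas, bright in both lines, rose by 0.88 on the log2 scale, and its partner Sting1 passed the test but lay too close to the detection limit for a ratio (6.33 and 6.21 in Hdh109/109 cells, undetected in Hdh7/7 cells). The member that fell was Mavs, the mitochondrial adaptor of the RNA sensors, with 8.46 and 8.30 in Hdh109/109 cells and 9.18 and 9.08 in Hdh7/7 cells.

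Antigen presentation genes of MHC class I rose in 14 of 15 tested, with a median log2 fold change of 1.59 and none lower. Of the 15, 5 were undetected on both Hdh7/7 arrays, and with undetected probes at their limit the median was 1.24. Erap1, among those that rose, had a difference of -0.10 with undetected signals at the limit. With median scaling over detected probes 12 rose, as when only the 4 arrays compared were fitted. The remaining member was the proteasome activator Psme2, at 0.43. The interferon-inducible proteasome subunit Psmb8 had 9.77 and 9.42 in Hdh109/109 cells, against 4.79 and 4.75 in Hdh7/7 cells, at least 9.42-fold, and Psmb9 was at least 2.91-fold higher. Tap2, a chain of the peptide transporter into the endoplasmic reticulum, had 9.11 and 9.24 in Hdh109/109 cells and 6.29 and 4.93 in Hdh7/7 cells, 6.33-fold. Its fitted log2 fold change was 4.25 without Hdh7/7 replicate 1 and 2.88 without Hdh7/7 replicate 2. The heavy chain gene H2-K1 had 10.06 and 10.15 in Hdh109/109 cells and 7.86 and 7.67 in Hdh7/7 cells (log2 fold change 2.34 ± 0.14, limma adjusted p = 7.62e-07), but its probes ranged from 0.35 to 2.34 in log2 fold change. The nonclassical heavy chain H2-T23 was 4.29-fold and the peptide editor relative Tapbpl at least 1.92-fold higher. B2m, the light chain shared by all class I molecules and bright in both lines, had 13.56 and 13.74 in Hdh109/109 cells and 12.55 and 12.65 in Hdh7/7 cells.

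Secreted signals were higher as well. Of 13 chemokine and cytokine genes tested, 11 rose and 2 fell, with a median log2 fold change of 1.61. With undetected probes at their limit the median was 0.74. The genes that rose include Ccl4 and Il6, whose differences were -0.51 and 0.04 with undetected signals at the limit. Of the 13, 6 were undetected on both Hdh7/7 arrays. When only probes detected on all 12 arrays were tested, 4 members remained, of which 2 rose and 2 fell (median 0.01). Cxcl10, which recruits T cells, had 12.05 and 12.35 in Hdh109/109 cells, against 6.01 and 4.94 in Hdh7/7 cells, 56.8-fold (log2 fold change 6.72 ± 0.29, limma adjusted p = 1.01e-07). Ccl5, another attractant of T cells, had 11.91 and 11.69 in Hdh109/109 cells and 6.15 and 5.39 in Hdh7/7 cells, 41.1-fold. The monocyte attractant Ccl7 had 11.29 and 10.90 in Hdh109/109 cells, against 6.67 and 5.19 in Hdh7/7 cells, 21-fold, with fitted log2 fold changes of 5.91 without Hdh7/7 replicate 1 and 4.42 without Hdh7/7 replicate 2. Its relative Ccl2 had 10.24 and 10.09 in Hdh109/109 cells, against 5.71 and 5.21 in Hdh7/7 cells, at least 14-fold. All 4 were high on both Hdh109/109 arrays and undetected on at least 1 Hdh7/7 array. Cxcl16 and Cxcl5 were at least 1.55-fold and 1.14-fold higher. The members that fell were Cx3cl1 (fractalkine), with 8.50 and 8.35 in Hdh109/109 cells and 10.36 and 10.25 in Hdh7/7 cells, and the macrophage growth factor Csf1, with 8.63 and 9.01 in Hdh109/109 cells and 9.69 and 9.87 in Hdh7/7 cells. The probes of Il1b and Tnf were not detected often enough to be tested.

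**Figure D1:**
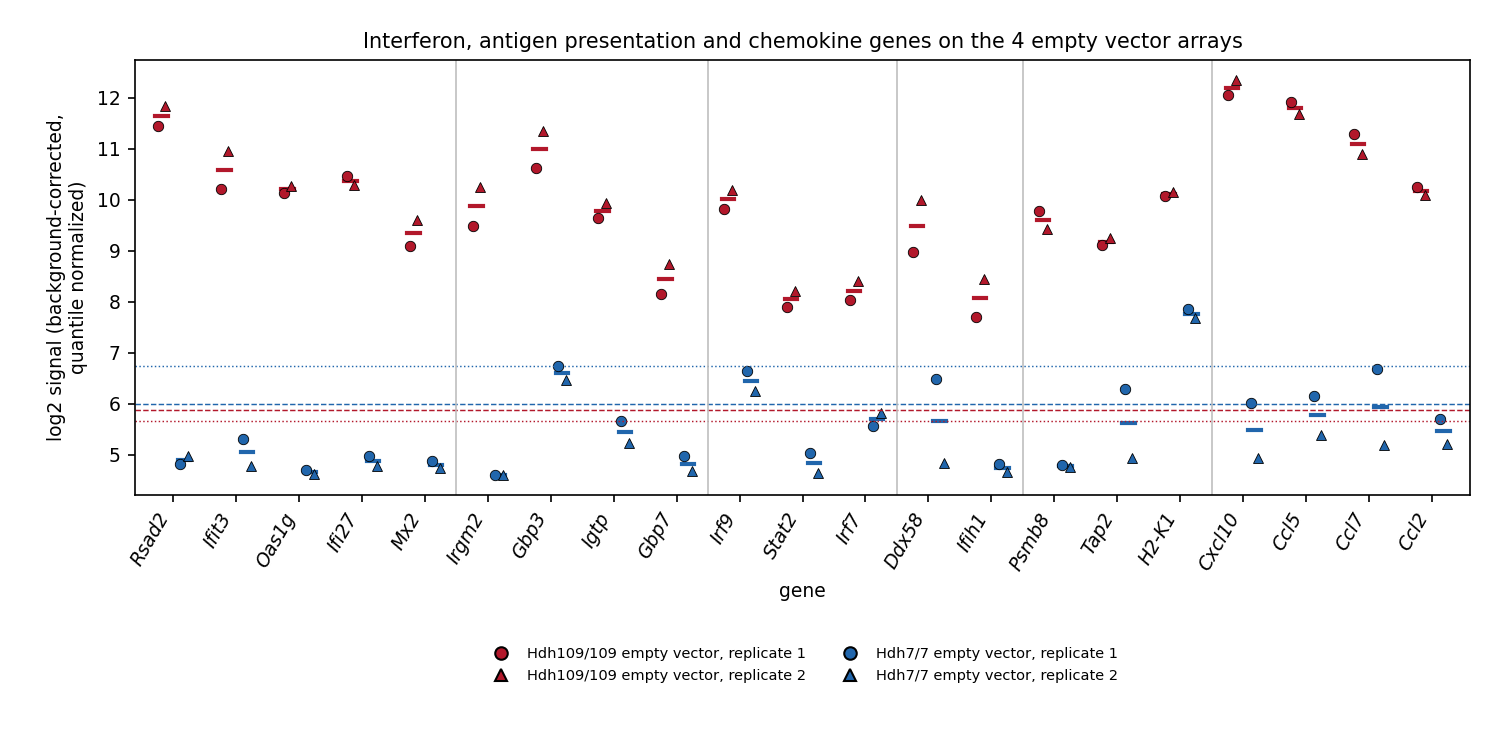
Background-corrected, quantile-normalized log2 signal (y axis) of 21 genes (x axis) on the 4 empty vector arrays, Hdh109/109 in red at left and Hdh7/7 in blue at right of each gene. Circles and triangles are replicates 1 and 2, short bars their mean, and horizontal lines the lowest detected signal of each array (dashed for replicate 1, dotted for replicate 2). The Hdh109/109 values of each gene lie above its Hdh7/7 values, most of which are below the detection limit of their array.

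NF-kB genes, many of which are induced by inflammatory signals, rose in 10 of 13 tested and fell in 1, with a median log2 fold change of 0.97. Over all genes tested, 23.9% rose and 22.4% fell. Of the 13, 6 were undetected on both Hdh7/7 arrays. With undetected probes at their limit the median was 0.56. Without replicate 2 of the Hdh109/109 cells 7 rose. Birc3, an inhibitor of cell death, was at least 1.94-fold and the leukocyte adhesion molecule Icam1 at least 1.7-fold higher, while the subunit gene Rela rose by 1.16 on the log2 scale. Vcam1, also an adhesion molecule, went the other way, with 9.06 and 9.07 in Hdh109/109 cells and 10.86 and 10.83 in Hdh7/7 cells, although another of its probes had a log2 fold change of 0.39. Of 8 genes of inflammatory cell death tested, 4 rose and 1 fell, beside the same shares of all genes. Their median log2 fold change was 0.86, or 0.39 with undetected probes at their limit. Casp4, among those that rose, was undetected on both Hdh7/7 arrays, and its difference was -0.25 with undetected signals at the limit. Mlkl, the executioner of necroptosis, had 9.00 and 8.78 in Hdh109/109 cells and 6.11 and 5.95 in Hdh7/7 cells, 5.55-fold. Ripk3, the kinase that activates it, was 2.34-fold higher and Gsdmd, the pore former of pyroptosis, 2.6-fold. Fas, a death receptor, was the member that fell, at least 1.67-fold, but its other probe had a log2 fold change of 0.42. Its call was lost without replicate 1 or 2 of the Hdh109/109 cells (-1.03 and -0.85) and without replicate 2 of the Hdh7/7 cells (-0.53).

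Markers of immune cells were mostly below detection on the same arrays. Of 11 microglia and leukocyte markers with a probe, 10, among them Ptprc, Itgam, Aif1 and Tmem119, were not detected often enough to be tested. The summed linear signal of the 11 was 353 and 340 units in Hdh109/109 cells, against 302 and 338 units in Hdh7/7 cells. The remaining marker, Cd14, had 5.89 and 6.02 in Hdh109/109 cells and was undetected in Hdh7/7 cells at 4.74 and 4.78. It passed the test, but its mean in Hdh109/109 cells did not exceed the mean detection limit of the Hdh7/7 arrays, and no ratio is given. In an extract of many cells, more cells that express a gene and more RNA per cell cannot be told apart.

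The interferon difference was larger with empty vector than in untransfected cells. In untransfected cells, Rsad2 had log2 levels of 5.59 and 4.83 in Hdh109/109 cells and 4.54 and 4.65 in Hdh7/7 cells, undetected on all 4 arrays. With DNRest it had 10.92 and 11.38 in Hdh109/109 cells and 4.70 and 4.85 in Hdh7/7 cells. Over the 28 effectors the median log2 fold change between the lines was 2.43 with empty vector, 0.20 untransfected and 2.40 with DNRest. Of all genes, 18.1% were higher in Hdh109/109 cells untransfected and 19.9% with DNRest. For the 6 GTPase genes it was 3.98, 0.23 and 3.09, and for MHC class I 1.59, 0.10 and 1.36. The line difference with empty vector and that in untransfected cells share no arrays, and their difference was tested. For 1834 probes (12%) it passed the test, positive in 1086 (7.13%) and negative in 748 (4.91%), and the number ran from 671 to 3453 with any 1 of the 8 arrays left out. By gene it was called for 1189 of 8487 genes (14%), positive in 760 (8.95%) and negative in 429 (5.05%). Among the effectors 21 of 28 were positive and 0 negative, among GTPase genes 6 of 6, among MHC class I genes 11 of 15 and among chemokines and cytokines 8 of 13. Detection on 2 of the 12 arrays was enough for a test, so a gene could enter through transfected Hdh109/109 cells alone. These list counts are therefore partly set by the filter. The 6 genes with the highest fitted values were Rsad2 (6.13 ± 0.35, SE), Ifit3 (5.52 ± 0.43), Igtp (5.08 ± 0.34), Cxcl10 (4.73 ± 0.42), Irgm2 (4.68 ± 0.32) and Uba7 (4.68 ± 0.41), the last encoding the activating enzyme for the ubiquitin-like Isg15. Their adjusted p-values in limma were 5.2e-05 to 0.00021. All 6 were undetected on some of the arrays compared, so sizes and order are not measured exactly. With undetected signals at the limit of their array the values were 5.17, 4.02, 3.98, 4.52, 3.39 and 3.41.

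Within the Hdh109/109 line, empty vector cells had 22 of the 28 effectors higher than untransfected cells and 0 lower, against 206 higher (2.43%) and 79 lower (0.931%) of all 8487 genes, 3.36% together. The same held for 6 of 6 GTPase genes, 10 of 15 MHC class I genes and 7 of 13 chemokine and cytokine genes, again with 0 lower. These list counts, too, are partly set by the detection filter. Rsad2 and Mx2, undetected in untransfected Hdh109/109 cells, were at least 51-fold and 10.4-fold higher, and Gbp3, detected in both states, was higher by 4.36 ± 0.24 (SE) on the log2 scale. In the Hdh7/7 line 563 genes (6.63%) were higher and 959 (11.3%) lower with empty vector than untransfected, 17.9% together, but 0 of 28 effectors were higher and 3 lower, and 0 of 15 MHC class I genes were higher and 4 lower. Tap2 is one of these, with log2 levels of 6.29 and 4.93 in Hdh7/7 empty vector cells and 7.20 and 7.21 in untransfected Hdh7/7 cells. The labels do not say when each group was cultured or hybridised, so transfection and any such difference cannot be told apart. Some members differed between the lines in each state. Trim25 had a fitted log2 fold change of 6.27 with empty vector and 4.54 untransfected, Ccl5 6.03 and 3.01, and Mlkl 2.86 and 2.51, the first 2 against undetected signals in untransfected Hdh7/7 cells.

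**Figure D2:**
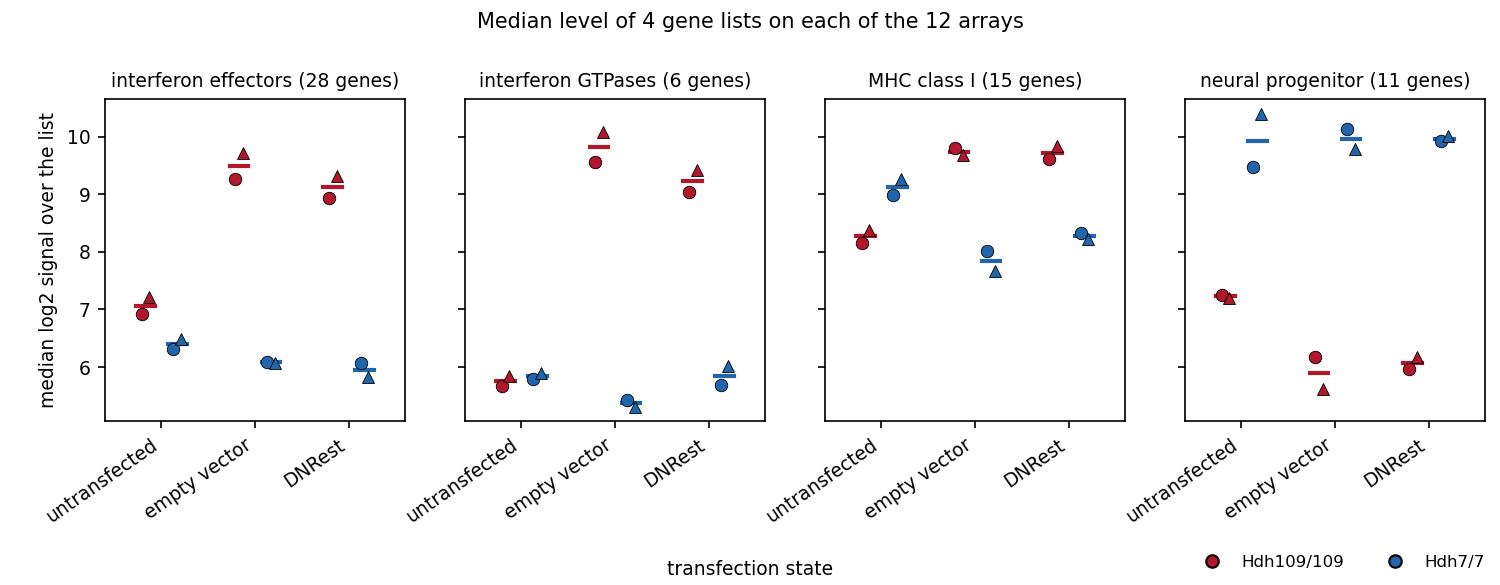
Median log2 signal (y axis) over the tested genes of 4 lists on each of the 12 arrays, by transfection state (x axis), with Hdh109/109 in red at left and Hdh7/7 in blue at right. Circles and triangles are replicates 1 and 2 and bars their mean. With empty vector the interferon effectors had medians of 9.26 and 9.72 in Hdh109/109 cells and 6.09 and 6.07 in Hdh7/7 cells, whereas the medians of neural progenitor genes were lower on all 6 Hdh109/109 arrays than on all 6 Hdh7/7 arrays.

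The line difference was also set against that in DNRest cells. For 0 of 15224 probes (0%) did the line difference with empty vector differ from that with DNRest in limma (smallest adjusted p = 0.294, 1247 probes with an unadjusted p under 0.05). Leaving out replicate 1 of the Hdh7/7 cells with empty vector gave 825 probes. Across the 8487 genes, which are not independent replicates, the line difference with empty vector correlated with that in DNRest cells at r = 0.933 and with that in untransfected cells at r = 0.746. Of the 3933 genes called between the lines with empty vector, 2043 were also called in untransfected cells in the same direction, 122 in the opposite direction and 1768 not called there. A missing call is no evidence that the lines were alike in that state.

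**Figure D3:**
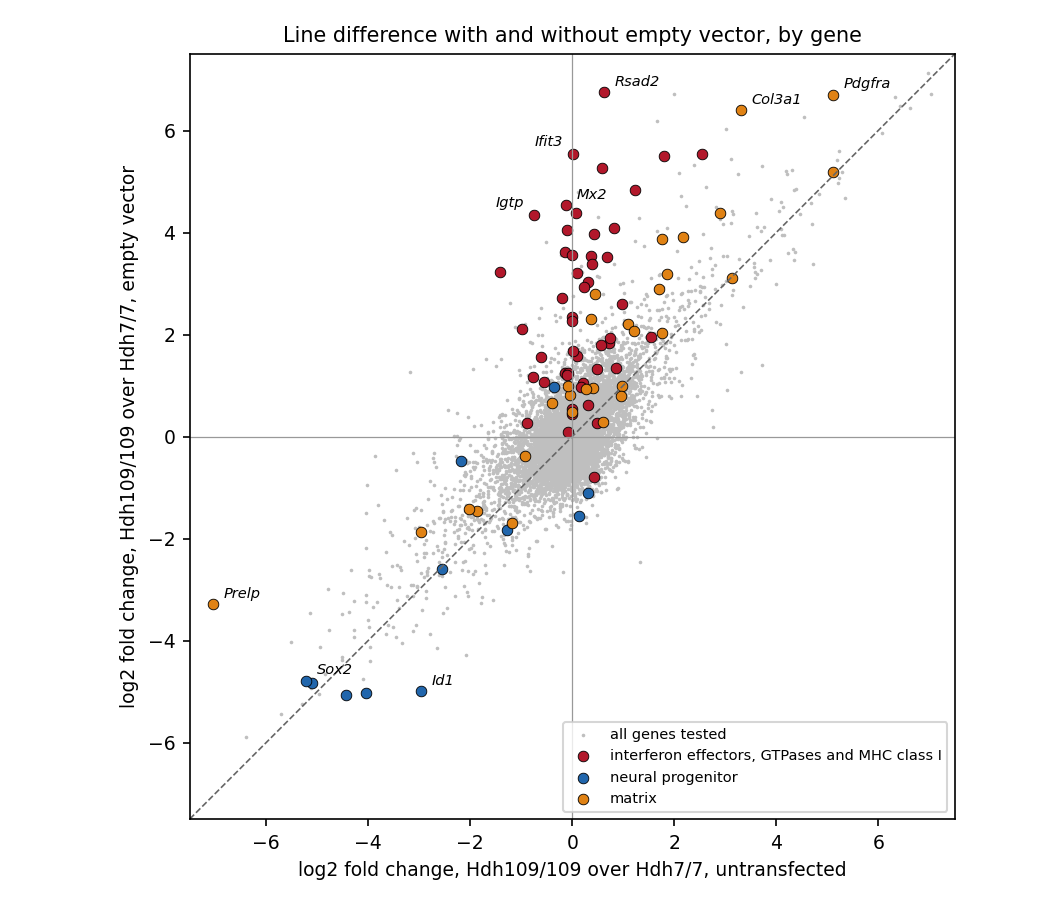
Log2 fold change of Hdh109/109 over Hdh7/7 for each of 8487 genes (points) with empty vector (y axis) and untransfected (x axis). The dashed line marks equal differences. Red points (interferon effectors, GTPases and MHC class I) lie mostly above the line at x values near 0, blue points (neural progenitor) mostly along it, and orange points (matrix) mostly on or above it.

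The highest line differences included developmental genes for which no difference from untransfected cells was called. Zic1, a zinc finger factor of neural development, had log2 levels of 11.67 and 12.06 in Hdh109/109 cells, against 4.66 and 4.82 in Hdh7/7 cells, at least 45.5-fold. The bHLH factor Sim2 had 10.98 and 11.25 in Hdh109/109 cells and 4.62 and 4.66 in Hdh7/7 cells, at least 26.9-fold, and the gap junction gene Gjb2 had 11.38 and 11.81 in Hdh109/109 cells and 4.91 and 4.86 in Hdh7/7 cells, at least 37.7-fold. Neither Hdh7/7 array detected any of these genes, whereas all 3 were bright on both Hdh109/109 arrays. Gask1b and the amino acid transporter Slc38a4 were at least 41.5-fold and 26.6-fold higher. The test of the line difference with empty vector against untransfected was not passed by these 5, with fitted values of 0.14, 0.04, -0.32, 0.32 and -0.19. All 5 were undetected in Hdh7/7 cells in both states, so a change in that line below the limit was not measurable. Samd9l, an antiviral gene among the 12 with the highest fold change, did pass it (4.53).

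Neural progenitor genes were lower in Hdh109/109 cells. Of 17 with a probe 11 were tested, and 10 of these fell while 1 rose (median log2 fold change -2.60). Sox2, the factor that keeps neural stem cells undifferentiated, had 5.70 and 5.55 in Hdh109/109 cells, against 10.40 and 10.42 in Hdh7/7 cells, at least 25.1-fold lower (log2 fold change -4.79 ± 0.15, limma adjusted p = 1.33e-08). Pax6, a factor of dorsal forebrain and eye development, had 4.84 and 4.95 in Hdh109/109 cells and 10.13 and 9.78 in Hdh7/7 cells, at least 18.3-fold lower. Sox11, of immature neurons, had 4.90 and 5.02 in Hdh109/109 cells and 10.16 and 9.81 in Hdh7/7 cells, at least 18.7-fold lower. On both Hdh109/109 arrays these 3 genes were undetected. Hes1, the effector of Notch signalling, was detected in both lines and 6.08-fold lower. Targets of BMP signalling fell to different degrees, Id4 by at least 13.6-fold, Id1 by 31.5-fold, Id2 by 2.96-fold and Id3 by 2.15-fold. Id1 had 6.17 and 5.62 in Hdh109/109 cells and 10.93 and 10.85 in Hdh7/7 cells, but another of its probes had a log2 fold change of -0.65. For Id1, Id2 and Id3 the difference between the lines was more negative with empty vector than untransfected, with differences of -2.03 ± 0.28, -1.70 ± 0.28 and -1.41 ± 0.28. Sox11 was also negative, whereas Notch1 and Prom1 were positive. The intermediate filament gene Nes (nestin) was 3.57-fold lower. Prom1, the other member that fell, was undetected in both lines. The member that rose was the receptor Notch1, with 9.15 and 9.31 in Hdh109/109 cells and 8.13 and 8.40 in Hdh7/7 cells. Beyond the list, Cadm1, an adhesion molecule, was at least 31.8-fold lower, with 4.91 and 4.83 in Hdh109/109 cells and 10.85 and 10.66 in Hdh7/7 cells. Also among the lowest were the engulfment receptor Megf10 (at least 22.7-fold), Epb41l4a (25.6), the developmental factor Sall3 (15.5), Atp6v0e2 (15.3) and Podxl (18.7), and the BMP modulator Bmper was 23.7-fold lower.

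**Figure D4:**
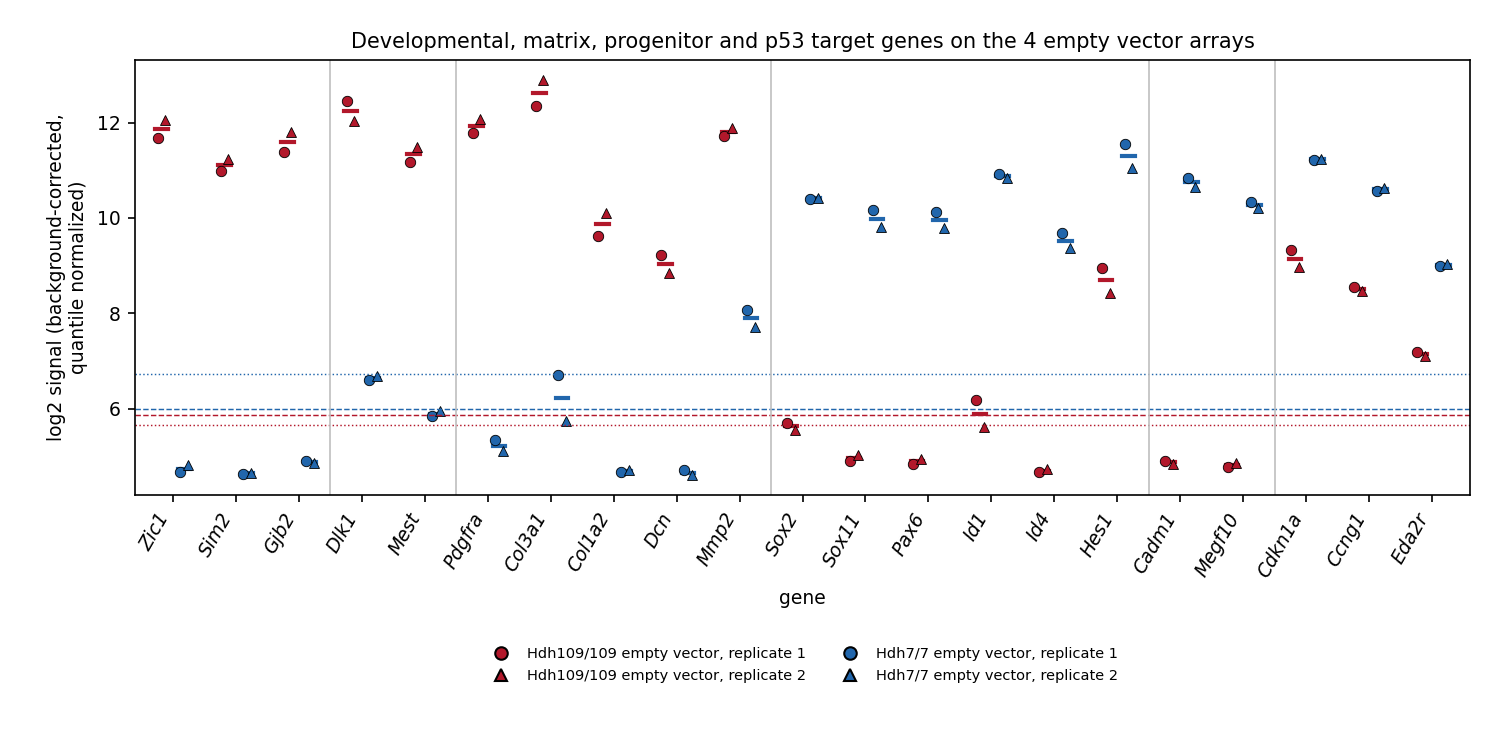
Background-corrected, quantile-normalized log2 signal (y axis) of 21 genes (x axis) on the 4 empty vector arrays, Hdh109/109 in red at left and Hdh7/7 in blue at right of each gene. Circles and triangles are replicates 1 and 2, short bars their mean, and horizontal lines the lowest detected signal of each array. The 10 genes at left (developmental factors, imprinted and matrix genes) were higher in Hdh109/109 cells and the 11 at right (progenitor genes, Cadm1, Megf10 and p53 targets) lower.

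Markers of mature striatal neurons were mostly below detection, so the striatal label rests on the origin of the lines. Of 21 with a probe, 9 were tested, and Drd1, Drd2, Ppp1r1b, Gad1 and Gad2 were among those not detected often enough. The 9 divided into 3 higher, 3 lower and 3 not called, beside 23.9% higher and 22.4% lower over all genes. The opioid precursor Penk had 7.89 and 7.83 in Hdh109/109 cells, against 5.48 and 4.90 in Hdh7/7 cells, at least 2.83-fold higher. The interneuron and striatal progenitor factors Dlx2 and Dlx1 were at least 2.53-fold and 1.26-fold higher. Pde1b, a phosphodiesterase, had 4.72 and 4.90 in Hdh109/109 cells and 7.92 and 7.84 in Hdh7/7 cells, at least 4.34-fold lower, and the factors Meis2 and Ebf1 were 4.6-fold and 1.83-fold lower. Astrocyte markers Gfap, Aqp4, Slc1a2 and S100b were not detected often enough to be tested. Of the 4 tested, 2 rose and 2, Gja1 and Glul, were not called. The glutamate transporter Slc1a3 had 10.09 and 9.99 in Hdh109/109 cells and 7.99 and 7.02 in Hdh7/7 cells. Apoe was at least 1.39-fold higher. Gja1, bright in both lines, had a log2 fold change of -0.21. The summed linear signal of 9 astrocyte markers was 9177 and 9943 units in Hdh109/109 cells, against 9485 and 10244 units in Hdh7/7 cells. Of 8 oligodendrocyte markers 1 (Cnp) was tested and not called, and of 10 endothelial markers 3 were tested, of which Egfl7 rose (0.97). That call was lost without replicate 1 of the Hdh109/109 cells (0.80) and without replicate 2 of the Hdh7/7 cells (0.62). The contractile genes Acta2 and Tagln had log2 fold changes of 0.55 ± 0.12 and -1.45 ± 0.21. The Acta2 call was lost with median scaling over detected probes (0.19) and when only the 4 arrays compared were fitted.

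Extracellular matrix and mesenchymal genes rose in 22 of 29 tested and fell in 5, with a median log2 fold change of 0.99. Col3a1, a fibrillar collagen, had 12.36 and 12.90 in Hdh109/109 cells, against 6.71 and 5.74 in Hdh7/7 cells, 59.9-fold (log2 fold change 6.40 ± 0.29, limma adjusted p = 1.22e-07). Col1a2 had 9.63 and 10.10 in Hdh109/109 cells and 4.68 and 4.70 in Hdh7/7 cells, at least 11.4-fold, and Col1a1 9.83 and 10.05 in Hdh109/109 cells and 6.86 and 5.27 in Hdh7/7 cells, 8.83-fold. For Col1a1 the fit gave 4.67 on the log2 scale without Hdh7/7 replicate 1 and 3.08 without Hdh7/7 replicate 2. The growth factor receptor Pdgfra, a marker of mesenchymal cells and oligodendrocyte precursors, had 11.77 and 12.07 in Hdh109/109 cells and 5.33 and 5.10 in Hdh7/7 cells, at least 47.2-fold, although its other probe had a log2 fold change of -0.41. The matrix proteoglycan Dcn (decorin) was at least 6.38-fold and the protease Mmp2 15-fold higher. Col4a1, a collagen chain chosen like Col4a2 and Prelp after its values were seen, had 9.23 and 9.22 in Hdh109/109 cells and 10.70 and 10.67 in Hdh7/7 cells, and Col4a2 10.84 and 10.97 in Hdh109/109 cells and 12.36 and 12.29 in Hdh7/7 cells. The proteoglycan Prelp had 6.63 and 6.46 in Hdh109/109 cells and 10.03 and 9.62 in Hdh7/7 cells. Col4a1, Col4a2, Prelp, Thbs1 and Cdh2 are the 5 that fell. For 15 of the 29 the line difference was more positive with empty vector than untransfected and for 0 more negative. Over all genes these shares were 8.95% and 5.05%. In Hdh109/109 cells 5 of the 29 were higher with empty vector than untransfected and 0 lower, beside 2.43% and 0.931% of all genes. In Hdh7/7 cells 16 of the 29 were lower with empty vector and 0 higher, beside 11.3% and 6.63% of all genes. Prelp, for example, had 12.18 and 12.07 in untransfected Hdh7/7 cells.

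Imprinted and non-coding genes rose in 9 of 10 tested and fell in 0, with a median log2 fold change of 1.58. Dlk1, an inhibitor of differentiation, had 12.45 and 12.04 in Hdh109/109 cells, against 6.60 and 6.69 in Hdh7/7 cells, 47.9-fold. Mest had 11.18 and 11.49 in Hdh109/109 cells and 5.83 and 5.94 in Hdh7/7 cells, at least 31.4-fold. The growth factor gene Igf2 had 9.27 and 9.22 in Hdh109/109 cells and 5.46 and 4.69 in Hdh7/7 cells, at least 7.37-fold, and the cell cycle inhibitor Cdkn1c was 15.2-fold higher. Both Hdh109/109 arrays were well above both Hdh7/7 arrays for each. Grb10 rose by 1.55 on the log2 scale, and Ndn (-0.25) was not called.

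Known targets of REST did not move as 1 group. Of 35 listed, 32 had a probe, and 22 of these, among them the synaptic genes Snap25, Syp and Chga, were not detected often enough to be tested. Of the 10 tested, 4 were undetected on both Hdh7/7 arrays and 3 on both Hdh109/109 arrays, with 3 undetected in both lines. Over all genes tested, 23.9% rose and 22.4% fell. Of these 10 targets, 1 rose and 4 fell, with a median log2 fold change of -0.43 that turned to 0.06 under median scaling over all probes. With 1 array left out, 2 fell without replicate 1 of the Hdh109/109 cells or replicate 2 of the Hdh7/7 cells, 5 without replicate 1 of the Hdh7/7 cells. Stmn2, a regulator of microtubules in neurons, had 9.90 and 9.87 in Hdh109/109 cells, against 5.24 and 5.36 in Hdh7/7 cells, at least 11.5-fold higher, with a log2 fold change of 0.78 for its other probe. Bex1 had 5.30 and 5.70 in Hdh109/109 cells and 8.68 and 8.59 in Hdh7/7 cells, 7.19-fold lower. The kinase activator Cdk5r1 was 3.21-fold lower. The vesicle genes Rab3a and Vamp2 had small differences (-0.60 ± 0.17 and -0.45 ± 0.13) that turned positive under median scaling, at 0.11 and 0.30. Neither was called without replicate 1 of the Hdh109/109 cells or without replicate 2 of the Hdh7/7 cells.

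Targets of p53 were lower in Hdh109/109 cells in 12 of 14 tested and higher in 1. Their median difference was -0.85 on the log2 scale, and -0.09 under median scaling over all probes, where 4 were lower. The number lower was 7 when only the 4 arrays compared were fitted, 8 without Hdh109/109 replicate 1 and 9 without Hdh7/7 replicate 2. Cdkn1a (p21), which halts the cell cycle, had 9.33 and 8.96 in Hdh109/109 cells, against 11.22 and 11.24 in Hdh7/7 cells, 4.24-fold lower (log2 fold change -2.09 ± 0.17, limma adjusted p = 8.54e-06). Ccng1 had 8.55 and 8.47 in Hdh109/109 cells and 10.57 and 10.63 in Hdh7/7 cells, 4.27-fold lower. Mdm2, the ligase that degrades p53, had 10.95 and 11.29 in Hdh109/109 cells and 12.25 and 12.59 in Hdh7/7 cells, 2.47-fold lower, although another of its probes had a log2 fold change of 0.55. The death receptor Eda2r was 3.64-fold and the nuclease Aen 1.96-fold lower. Plk2, a kinase, was the member that rose (2.01-fold). For 0 of the 14 did the line difference with empty vector differ from that in untransfected cells in limma, where the median was -0.79.

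For the counts in this paragraph, the shares over all genes tested were 23.9% higher and 22.4% lower. Among stress genes, 8 of 21 targets of ATF4 and of the endoplasmic reticulum stress response rose and 4 fell, with a median log2 fold change of 0.31. Under median scaling over all probes 11 rose and 0 fell, and without Hdh7/7 replicate 2 the numbers were 8 and 2. Atf4 itself had 12.71 and 13.04 in Hdh109/109 cells, against 11.75 and 11.45 in Hdh7/7 cells (2.42-fold). Atf3 was at least 1.68-fold higher, and the chaperones Hspa5 and Pdia4 were 2.05-fold and 2.97-fold higher. Ppp1r15a, the phosphatase subunit that ends the translational block, was 2.26-fold lower. Of 7 heat shock genes tested, 1 rose and 3 fell, with a median of -0.43 that turned to 0.15 under median scaling, where 3 rose and 1 fell. With Hdh109/109 replicate 1 left out, 3 rose. The co-chaperone Bag3 had 10.86 and 10.94 in Hdh109/109 cells and 4.71 and 5.19 in Hdh7/7 cells, at least 23.2-fold higher, whereas its partner Hspb8 had 11.18 and 11.13 in Hdh109/109 cells and 12.64 and 12.72 in Hdh7/7 cells, 2.89-fold lower. Of 17 genes of S phase and mitosis tested, 3 rose, 3 fell and 11 were not called, with a median of 0.01, or -0.19 with median scaling over detected probes. None was called when only the 4 arrays compared were fitted, and 1 rose without Hdh109/109 replicate 2. The helicase subunit Mcm5 rose by 0.71 on the log2 scale.

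**Figure D5:**
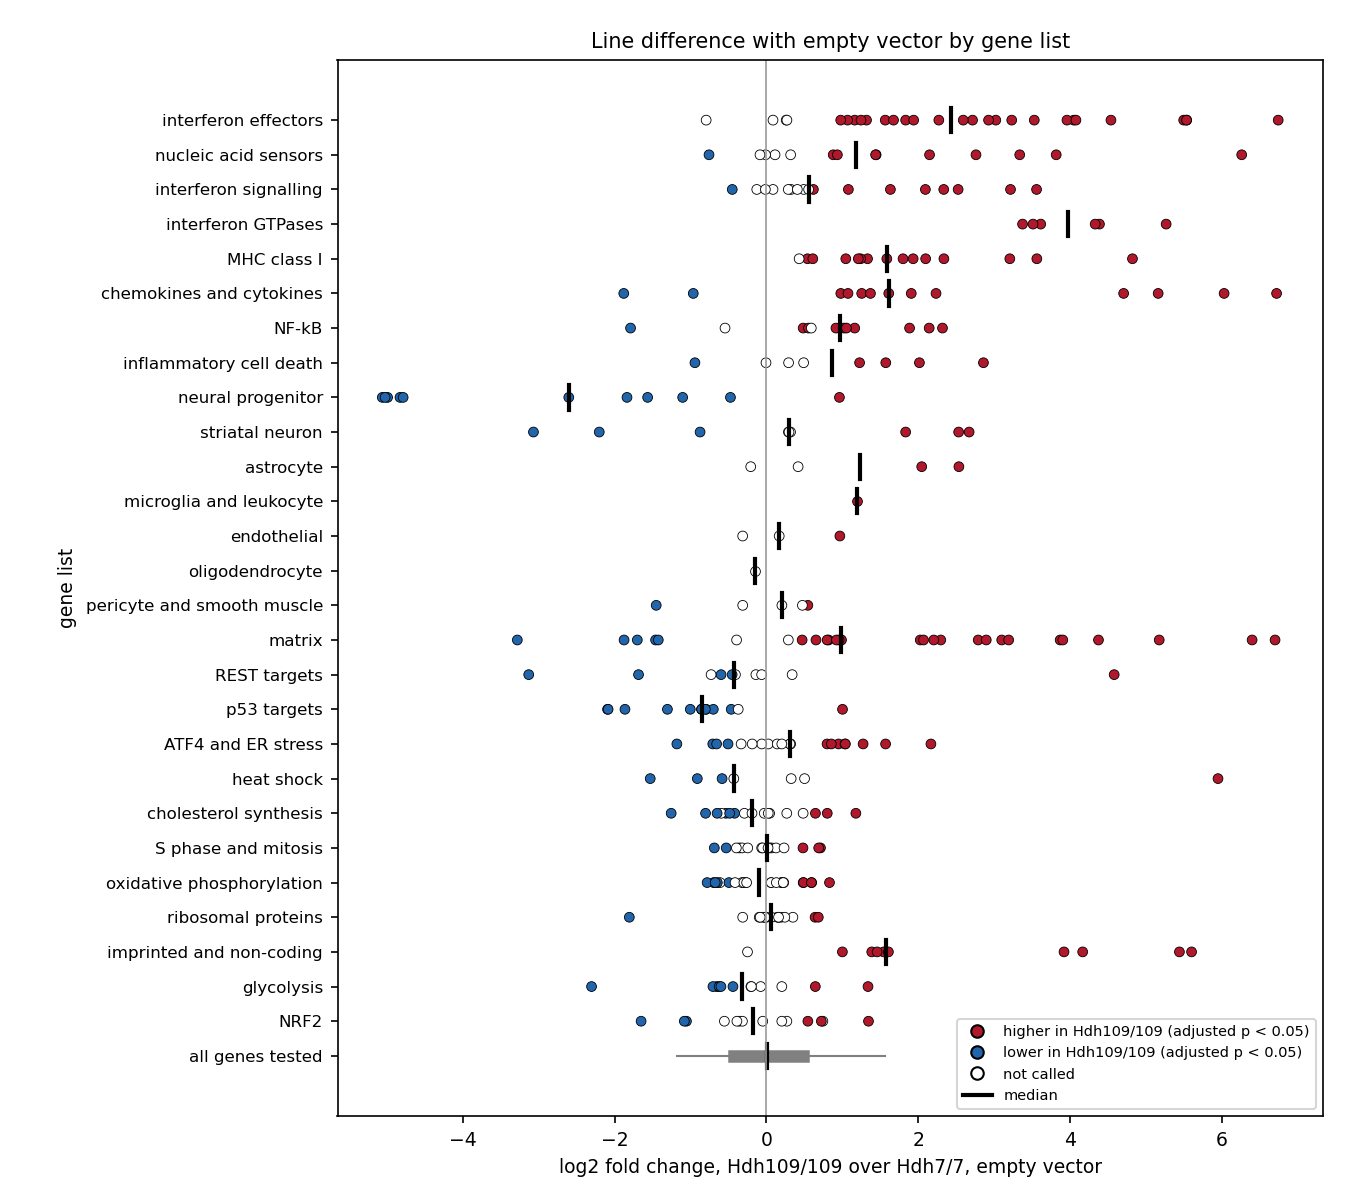
Log2 fold change of Hdh109/109 over Hdh7/7 with empty vector (x axis) for each tested gene (points) of the gene lists (y axis). Red and blue points were called higher and lower, white points were not called, and black bars are medians. At the bottom, the grey bar spans the middle 50% of all genes tested and the thin line the middle 90%. Medians are highest for interferon GTPases (3.98) and interferon effectors (2.43) and lowest for neural progenitor genes (-2.60).

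The line difference was lower with empty vector than in untransfected cells for 429 genes. S100a7a, a calcium-binding protein of the S100 family, had 5.80 and 5.36 in Hdh109/109 empty vector cells, against 8.03 and 8.07 in Hdh7/7 empty vector cells. In untransfected cells it had 6.85 and 7.08 in Hdh109/109 cells and 5.73 and 5.55 in Hdh7/7 cells, so the direction between the lines was opposite between the states (-3.80 ± 0.23, limma adjusted p = 5.24e-05). Prl2c3 and Prl2c4, genes of the prolactin family with near-identical copies whose probes may not separate them, had fitted differences of -2.32 and -2.13, both against undetected signals in Hdh7/7 cells. Tnnt2 (cardiac troponin T) had -2.20, the adhesion molecule Selp -2.22 and the chemokine Ppbp -2.04. Selp was not called between the lines with empty vector (log2 fold change 0.53 ± 0.22), but was without replicate 2 of the Hdh7/7 cells (0.90).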

How the data were processed

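Values came from the deposited table of non-normalized bead signals with detection p-values. The intensity is each probe's linear signal as the authors deposited it. The detection p-value of each signal was deposited beside it; the labels do not name the scanner software. The submitters' processing notes name limma. Signals were background-corrected from the detection p-values (offset 16), quantile-normalized and set on the log2 scale with limma 3.58.1 in R 4.3.3; the brightest values of the series' deposited log2 table, whose entries could not be matched to probes, served as an alternative only. Probes detected (p of at most 0.01) on at least 2 of 12 arrays were tested (15224 of 44505). One model covered 6 groups of 2 arrays, taken from the titles, with empirical Bayes variances and Benjamini-Hochberg adjustment over all probes (adjusted p under 0.05). Each gene is represented by its brightest probe. Symbols came from the platform annotation: 28471 probes had 1 symbol, 10 several and 16024 none. With 2 arrays against 2, an exact permutation test cannot go below p = 0.333. Deviations of same-numbered arrays of the lines correlated at r = 0.053 with empty vector and 0.121 untransfected (-0.445 to 0.359 over all pairs of groups), so the numbers were not taken as pairs. The fit was tested on simulated data.

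Named genes are the 12 highest and 12 lowest line differences, the 6 highest and 6 lowest differences from untransfected cells and up to 6 called members of each of 27 lists. Members named because they moved against their list, were not called or were undetected, and Ifitm3, Eif2ak2, Cgas, B2m, Id2, Id3 and Nes, were chosen after their values were seen. The comparison and lists were chosen with earlier results of these data known. Alternatives covered scaling, background, filters, array weights, a replicate block, source-name genotypes and leaving out each array. Promoter windows are RefSeq's (GRCm38.p6).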

Additional observations from a re-analysis of the deposited data

Results flagged for a closer look

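The line difference (log2, Hdh109/109 minus Hdh7/7) was not the same with empty vector as in untransfected cells for 1834 of 15224 probes. This difference of line differences was tested in limma with adjustment over all probes, and each gene below passed. Values are the line difference with empty vector minus that in untransfected cells, on the log2 scale. Of these 60 genes, 37 were undetected on both arrays of at least 1 of the 4 groups, so their fitted values are not exact. With undetected signals at the limit of their array, 0 of the 60 changed sign.

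Interferon effectors and related genes had positive values, namely Rsad2 (6.13), Ifit3 (5.52), Mx2 (4.66), Samd9l (4.53), Ifi27 (3.69), Parp9 (3.26), Oas1g (3.00) and Uba7 (4.68). The interferon-inducible GTPase genes had Igtp (5.08), Irgm2 (4.68), Gbp3 (4.31), Gbp7 (3.75), Irgm1 (3.00) and Ifi47 (2.83). Sensors and their partners had Ddx58 (4.34), Ifih1 (3.16), Dhx58 (2.76), Trim25 (1.72) and Myd88 (0.74). Signalling genes had Irf9 (3.77), Stat2 (3.03), Irf7 (2.70), Nmi (2.58), Irf1 (1.94) and Stat3 (0.98). Antigen presentation genes had Psmb8 (3.59), Tap2 (3.57), Psmb9 (3.11), H2-T23 (3.08), H2-K1 (2.35) and Tapbpl (1.20), and chemokine genes Cxcl10 (4.73), Ccl7 (3.07), Ccl5 (3.03), Ccl2 (2.59) and Cxcl16 (1.66).

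Matrix genes were also positive, with Col3a1 (3.09), Mmp2 (1.74), Pdgfra (1.60) and Dcn (1.48). The other genes named in the text with positive values were Mest (2.33), Slc1a3 (1.78), Pde1b (1.42), Icam1 (1.31), Apoe (1.29), Vcam1 (1.17), Pdk1 (1.04), Atf3 (0.79) and Hspb8 (0.64). For Pde1b, Vcam1 and Hspb8, which were lower in Hdh109/109 empty vector cells, a positive value means a smaller line difference than in untransfected cells.

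Negative values were found for Cdk5r1 (-0.86), Sox11 (-0.98), Tagln (-1.22), Hk2 (-1.43), Id1 (-2.03), Ppbp (-2.04), Prl2c4 (-2.13), Tnnt2 (-2.20), Selp (-2.22), Prl2c3 (-2.32) and S100a7a (-3.80). For S100a7a the line difference had opposite signs in the 2 states. These results come from 2 arrays a group, and no array could be tested as an outlier within its group.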

How the results depend on the processing

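With 2 arrays a group, both the number of calls and their direction depended on the settings. For probes called between the lines with empty vector (6575), fitting only the 4 arrays compared gave 3391, a minimum of 2-fold gave 2658, and grouping by source name gave 0 (698 at an unadjusted p under 0.05 in limma). Leaving out each array gave 4868 to 6815. Median scaling over all probes gave 6676 higher and 661 lower, against 3490 and 3085, and over detected probes, an alternative chosen after seeing the data, 3250 and 3639. The replicate block gave 6193.

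For probes whose line difference differed from that in untransfected cells (1834), fitting only the arrays compared gave 679, array weights 1039, a minimum of 2-fold 1136, and 1027 came from the brightest entries of the deposited log2 values. The replicate block gave 1418. Median scaling gave 2519 positive and 41 negative, against 1086 and 748. Leaving out each array gave 671 (without Hdh7/7 untransfected replicate 1) to 3453 (without Hdh7/7 empty vector replicate 1). For the difference from DNRest cells (0 probes), median scaling and those deposited values gave 2 each, and leaving out each array gave 0 to 825, the highest without Hdh7/7 empty vector replicate 1. The replicate block gave 0. Grouping by source name reassigned only empty vector arrays and was not run for these 2 comparisons.

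Of the named genes, Rab3a (0.11) and Vamp2 (0.30) changed sign under median scaling, neither past the test. Calls among interferon effectors numbered 23 to 26 of 28 in the settings counted that tested all 28. That range leaves out grouping by source name, which called 0 probes of any gene. It also leaves out the deposited log2 values, which could not be matched to probes. When only probes detected on all 12 arrays were tested, 12 effectors remained and 10 rose. Their median log2 fold change was 1.44, against 2.43 for all 28. The cause of these changes was not tested. Levels near the detection limit bound the ratios of 557 called genes undetected in Hdh7/7 cells, where replicate 2 had the highest limit.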

Other observations

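The counts in this section stand beside 23.9% of all genes tested higher and 22.4% lower in Hdh109/109 cells. Counts near those shares say nothing particular about a list. Of 12 glycolysis genes tested, 2 were higher and 6 lower in Hdh109/109 cells, with a median log2 fold change of -0.32 that turned to 0.07 under median scaling over all probes, where 3 were higher and 1 lower. Without Hdh7/7 replicate 2 the number lower was 4. Hk2, the inducible hexokinase that starts glycolysis, had log2 levels of 9.22 and 9.12 in Hdh109/109 cells, against 11.31 and 11.63 in Hdh7/7 cells, 4.94-fold lower (limma adjusted p = 9.36e-07). Pdk1, the kinase that keeps pyruvate out of the mitochondria, had 8.32 and 8.48 in Hdh109/109 cells and 7.28 and 6.84 in Hdh7/7 cells, 2.53-fold higher. Of 24 oxidative phosphorylation genes 5 were higher and 5 lower, near the shares of all genes, with a median of -0.10 that turned to 0.36 under median scaling. The number lower was 0 without Hdh109/109 replicate 2 and 9 without Hdh109/109 replicate 1.

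Of 17 cholesterol synthesis genes tested, 3 were higher and 6 lower, with a median log2 fold change of -0.19 that turned to 0.47 under median scaling, where 7 were higher and 0 lower. Idi1, an isomerase early in the pathway, had 8.89 and 9.29 in Hdh109/109 cells and 7.86 and 7.96 in Hdh7/7 cells, 2.27-fold higher. The reductase Hsd17b7 had 9.64 and 9.74 in Hdh109/109 cells and 11.00 and 10.89 in Hdh7/7 cells, 2.39-fold lower. Of 14 antioxidant targets of NRF2, 3 were higher and 3 lower, with a median of -0.18 that turned to 0.43 under median scaling. Without Hdh109/109 replicate 2, 1 was higher, and without Hdh109/109 replicate 1, 5 were lower. The quinone reductase Nqo1 had 9.11 and 8.85 in Hdh109/109 cells and 10.24 and 9.82 in Hdh7/7 cells, 2.07-fold lower, with a log2 fold change of -0.41 and no call under median scaling. Of 17 ribosomal protein genes 2 were higher and 1 lower, with a median of 0.07 that turned to -0.29 with median scaling over detected probes.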
